A study of Caenorhabditis elegans with 19 samples.

Results

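The 9 genes described here encode parts of the machinery that meets secretory proteins at the membrane of the endoplasmic reticulum (ER). They are trap-1, trap-2, trap-3 and trap-4 of the translocon-associated protein (TRAP) complex, ostb-1, ostd-1 and ribo-1 of the oligosaccharyltransferase, and spcs-1 and spcs-2 of the signal peptidase complex. They were taken by name, 9 of the 19985 protein-coding genes in the count table, and all 9 were found. The list was chosen by name with the measured auxin-against-ethanol differences of these libraries known, so the auxin values of the 9 genes are a description and are not offered as evidence of a response of this machinery.

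RNA was sequenced from gonads dissected from young adult Caenorhabditis elegans hermaphrodites of 3 degron strains, in which auxin triggers breakdown of the tagged protein. Strain ESC332 was used to deplete RPOA-2, which belongs to RNA polymerase I, strain ESC422 to deplete GRWD-1 and strain ESC420 to deplete TSR-2, both ribosome assembly factors. Worms were moved at late L4 to plates with 1 mM auxin (indole-3-acetic acid, IAA) or the same volume of ethanol and stayed there for 18 h at 20 °C, and 20 gonads made up a replicate. There were 4 ethanol and 4 auxin libraries for RPOA-2, 3 and 3 for GRWD-1, and 2 and 3 for TSR-2. Every group carries a degron strain, and auxin-treated animals without a degron are not among the samples analysed here. A dissected gonad holds germ cells, oocytes and somatic gonad cells together, so fewer cells of a type and less RNA per cell cannot be told apart.

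Proteins bound for secretion or for membranes enter the ER through the Sec61 channel while they are being made. The TRAP complex sits beside that channel and assists the entry of some precursors. The oligosaccharyltransferase attaches N-linked sugar chains to the entering protein, and the signal peptidase removes its signal peptide. In the C. elegans germ line the oocytes use this route for the receptors, eggshell components and surface proteins that they make.

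Depth was uneven. Totals over protein-coding genes ran from 1582308 to 4336988 counts in ethanol and 2422766 to 8012912 in auxin in RPOA-2. In GRWD-1 they ran from 2031037 to 2993987 against 4229644 to 8526501, so there depth and auxin cannot be told apart. In TSR-2 ethanol they were 2054890 and 3766331, and auxin libraries held up to 3950086, but auxin replicate 3 held 43578. In that library 3 counts are worth 63.8 CPM (counts per 1000000 counts), so trap-2, ostd-1 and spcs-1 cannot be measured there. CPM use the library size after TMM scaling. TSR-2 values come from a separate table in which reads that map to several places are divided, and its levels are not compared with those of the other strains. The mRNAs of the tagged genes were not lower in auxin: log2 changes were 0.29 for rpoa-2, 0.30 for grwd-1 and 0.88 for tsr-2, with adjusted p of 0.277, 0.390 and 0.0627 (edgeR quasi-likelihood F test, Benjamini-Hochberg). The degron acts on the protein, so these mRNA values do not check the depletion.

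In ethanol libraries the 9 genes covered a wide range of levels. Per kilobase of exon, which lets genes be compared, trap-3 was highest in the RPOA-2 strain at 446.9 ± 54.1 CPM per kb (SD, n = 4), and trap-4 followed at 358 ± 48.2. The trap-3 gene encodes the gamma and trap-4 the delta subunit of TRAP. Next came ribo-1, the ribophorin I subunit of the oligosaccharyltransferase, at 324.8 ± 65.98 CPM per kb. The level of trap-1, the alpha subunit of TRAP, was 258.4 ± 15.3 CPM per kb. These 4 genes formed the upper group, in which each overlapped its neighbour in the order, and none overlapped the genes below.

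The lower group in the RPOA-2 ethanol libraries began with ostb-1, the OST48-like subunit, at 131.5 ± 22.03 CPM per kb. The signal peptidase subunit spcs-2 stood at 118 ± 9.57 and spcs-1 at 90.5 ± 24.03 CPM per kb. The beta subunit gene trap-2 was at 73.7 ± 12.6 and the ribophorin II-like ostd-1 at 58.4 ± 8.24 CPM per kb. Each of these 5 overlapped the next in the order, so their ranks among neighbours are not separated by the spread between libraries. The median of all tested genes was 29.1 CPM per kb in these libraries, and all 9 genes lay above it.

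The GRWD-1 ethanol libraries gave the same upper group, from trap-3 at 464 ± 88.5 to trap-1 at 231 ± 35.6 CPM per kb (SD, n = 3). There ostd-1 at 61.3 ± 19.1 and trap-2 at 60.9 ± 12.11 CPM per kb were not distinguishable. In TSR-2 ethanol the order ran from trap-3 at 442 to ostd-1 at 30.9 CPM per kb (n = 2), with the latter the sole member of the 9 under the median of 38.5 CPM per kb. That ostd-1 value rests on divided reads: over the 12 libraries that are in both tables, the divided count of ostd-1 was 0.50 of its whole count, and that of the other 8 genes was 1.00. In the annotation ostd-1 lies inside the span of tom-1 on the opposite strand. The strand setting of the counting is not given in the sources used here, so reads of ostd-1 and tom-1 may not have been told apart.

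**Figure D1:**
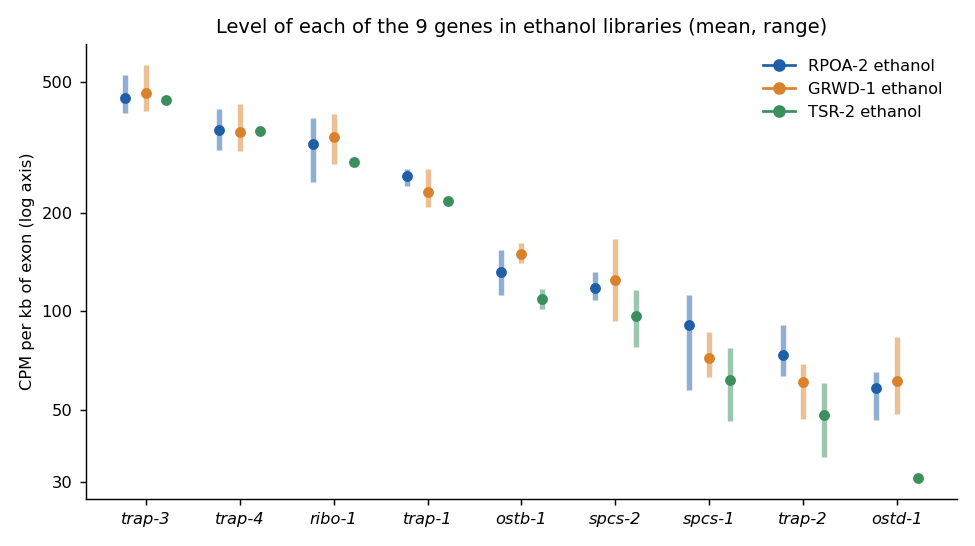
Level of each of the 9 genes in the ethanol libraries, as CPM per kb of exon on a log axis, with points for the mean and bars for the lowest and highest library of each strain. The trap-3, trap-4, ribo-1 and trap-1 genes lie above the other 5 in all 3 strains, and trap-2 and ostd-1 lie at the bottom.

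The level of trap-2 lay below that of the other TRAP genes by more than the libraries differed. In the RPOA-2 ethanol libraries trap-2 stood at 17.2, 29.2, 20.4 and 22.6% of the mean CPM of the other 3 TRAP genes. The proteins are subunits of 1 complex in other animals, but mRNA levels do not give protein levels. The gene trap-2 is on chromosome X (767023 to 768069, reverse strand, WBcel235), and the other 8 are on autosomes. Of those, trap-1 (2928395 to 2929628) is on chromosome I, trap-3 (2389445 to 2390259) on IV and trap-4 (11920735 to 11921586) on III, all on the forward strand.

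With auxin, all 4 TRAP genes were lower in every RPOA-2 and GRWD-1 library than in any ethanol library of the same strain. Of all tested genes 4.53% were in RPOA-2 and 11.3% in GRWD-1. In RPOA-2, trap-1 was at 286.7, 253.4, 284.5 and 263.9 CPM in ethanol replicates 1 to 4 and at 187.0, 135.7, 168.5 and 137.3 CPM in auxin. In GRWD-1 it was at 218.6, 286.2 and 224.5 CPM in ethanol and at 121.5, 151.7 and 109.8 CPM in auxin. The groups did not overlap in either strain, with log2 changes of -0.79 ± 0.117 and -0.93 ± 0.173 (edgeR, SE).

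The trap-2 values were the lowest of the TRAP genes and differed most between treatments. In RPOA-2 they were 51.9, 74.1, 52.8 and 62.5 CPM in ethanol replicates 1 to 4 and 30.97, 7.79, 24.7 and 22.7 CPM in auxin. In GRWD-1 they were 56.5, 38.5 and 54.7 CPM in ethanol and 12.96, 4.02 and 14.9 CPM in auxin. Auxin replicate 2 held the lowest value in both strains, and no auxin library reached an ethanol library of its strain. The log2 change was -1.50 ± 0.343 in RPOA-2 and -2.25 ± 0.412 in GRWD-1. In order of log2 change from the lowest, trap-2 was number 102 of 7881 tested genes in RPOA-2 and number 15 of 6948 in GRWD-1.

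Depth and sheath RNA were set beside trap-2. Auxin replicate 2 was the deepest library in both strains, with scaled sizes of 8214684 and 8216014 counts. Summed CPM of 10 sheath and somatic gonad markers were lowest in the same libraries, at 93.0 in RPOA-2 auxin replicate 2, where other RPOA-2 auxin libraries had 133 to 178, and at 28.0 in GRWD-1 auxin replicate 2, where the others had 71.5 and 79.6. The RPOA-2 ethanol library with the highest trap-2 value, replicate 2, also had the highest sheath sum of its group, 253. It was the deepest of its group at 4427435 counts and had the highest summed CPM of 14 intestinal markers, 43150. RPOA-2 auxin replicates 1, 3, 4 and 2 had sheath sums of 178, 167.4, 133.1 and 93.0. Their trap-2 values ran in the same order, at 30.97, 24.7, 22.7 and 7.79 CPM. In other groups, of both treatments, some libraries did not follow the sheath order. The lowest trap-2 value of RPOA-2 ethanol, in replicate 1, came with the second highest sheath sum, 199.7. GRWD-1 ethanol replicate 3 had the lowest sheath sum, 55.5, with trap-2 at 54.7 CPM. In GRWD-1 auxin, replicate 1 had the highest sheath sum, 79.6, with trap-2 at 12.96 CPM, below the 14.9 CPM of replicate 3. In TSR-2 auxin, replicate 1 had the highest sheath sum, 62.4, and the lowest trap-2 value, 14.8 CPM. The TSR-2 ethanol libraries followed the order, with sums of 80.9 and 111.5 beside 29.3 and 49.5 CPM. Over groups the sheath sum ran from 141.7 to 253 CPM in ethanol and 93.0 to 178 CPM in auxin in RPOA-2, from 55.5 to 76.7 against 28.0 to 79.6 CPM in GRWD-1, and from 80.9 to 111.5 against 36.7 to 62.4 CPM in TSR-2. None of the tested sheath genes was called by edgeR or DESeq2, with 0, 0 and 2 at an unadjusted p under 0.05. Their log2 changes were negative for 6 of 7 in RPOA-2, 2 of 5 in GRWD-1 and 4 of 4 in TSR-2. The medians were -0.70, 0.01 and -0.99. In TSR-2 the sums of the groups did not overlap, and lag-2 was at 0 in ethanol and tnc-2 at 0 in auxin. The part of sheath RNA, intestinal RNA and depth in the trap-2 values was not tested. Over genes on chromosome X the median log2 change was -0.40 in RPOA-2 (888 genes) and -0.33 in GRWD-1 (663 genes), against 0.02 on autosomes in both. In TSR-2 it was -1.06 (517 genes), against 0.01 on autosomes. Of X-linked genes 2.365% were called lower in RPOA-2, 1.21% in GRWD-1 and 10.6% in TSR-2, against 1.07, 1.48 and 1.23% of autosomal ones. Without the shallow TSR-2 auxin replicate 3, 0.0885% of all tested genes were called in that strain. The part of the chromosome in the trap-2 values was not tested either.

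For trap-3, RPOA-2 values were 360.6, 299.3, 277.1 and 289.2 CPM in ethanol and 230.4, 184.3, 201.0 and 187.8 CPM in auxin, and the GRWD-1 values were 279.9, 388.3 and 286.8 against 128.8, 188.5 and 163.4 CPM. For trap-4, RPOA-2 values were 255.4, 207.6, 216.1 and 275.2 CPM in ethanol and 145.9, 135.6, 119.1 and 148.7 CPM in auxin, and the GRWD-1 values were 205.6, 286.6 and 210.7 against 93.5, 156.3 and 107.5 CPM. In both genes and both strains the lowest ethanol library stayed above the highest auxin library. Log2 changes were -0.61 ± 0.112 and -0.99 ± 0.185 for trap-3 and -0.80 ± 0.117 and -0.97 ± 0.209 for trap-4, in RPOA-2 and GRWD-1 respectively.

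**Figure D2:**
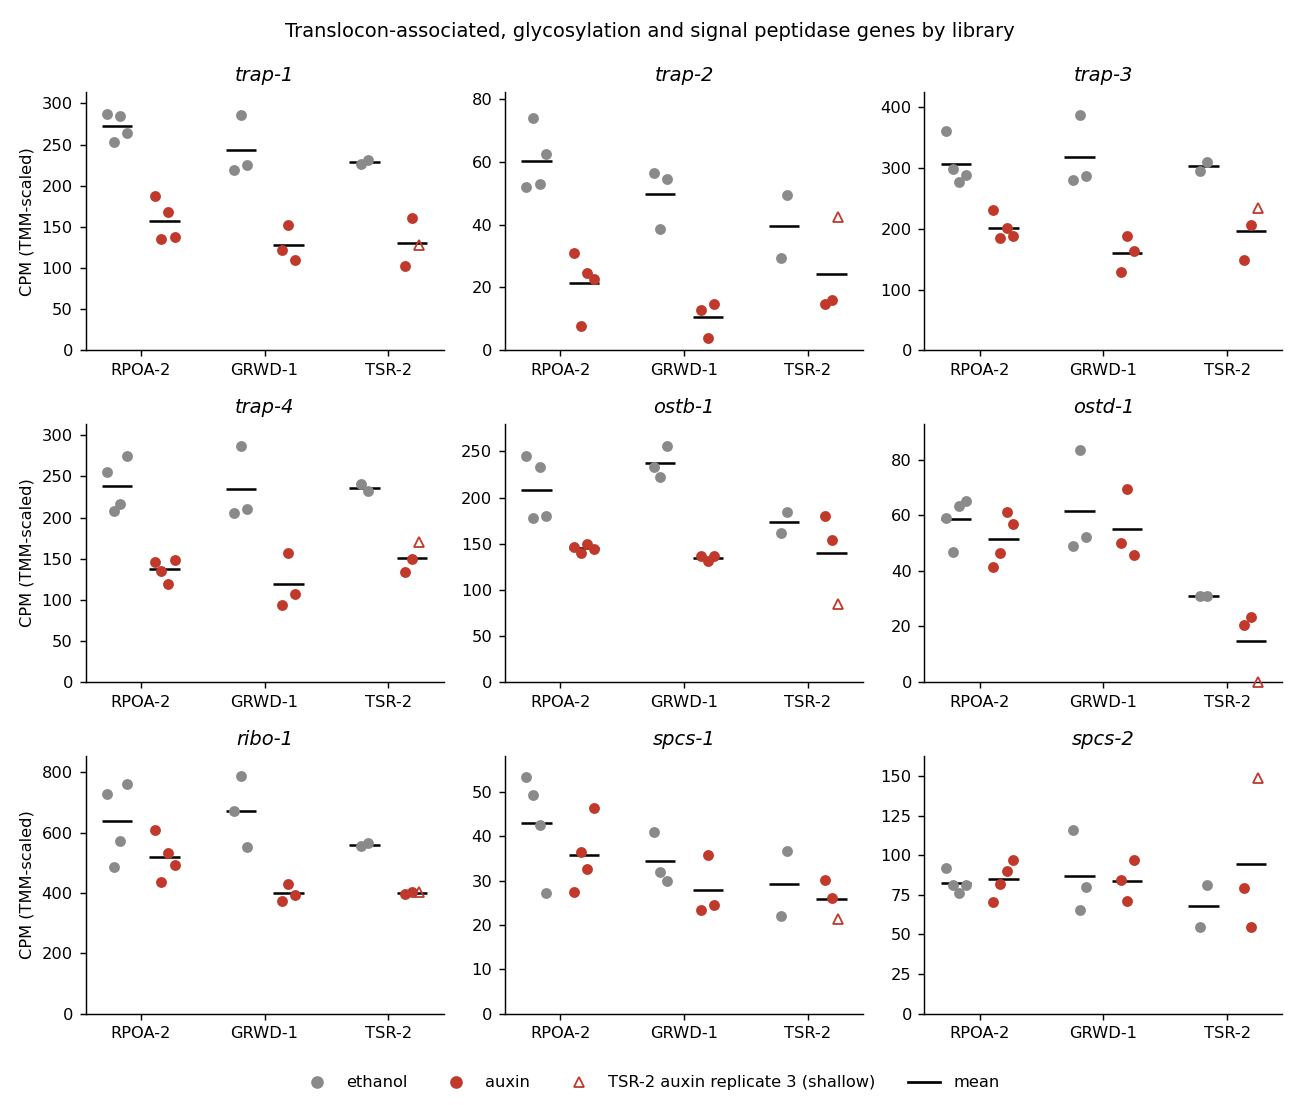
CPM after TMM scaling of each of the 9 genes in every library, in grey for ethanol and red for auxin, with black bars for group means and an open triangle for the shallow TSR-2 auxin replicate 3. The TRAP genes show separate ethanol and auxin groups in RPOA-2 and GRWD-1, and spcs-1 and spcs-2 show groups that overlap.

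In TSR-2, trap-1 stood at 226.9 and 231.5 CPM in ethanol and at 102.1, 160.3 and 127.6 CPM in auxin, the last from 6 counts. The trap-3 gene stood at 295.9 and 310.6 against 148.1, 205.6 and 234.0 CPM, and trap-4 at 240.7 and 232.0 against 134.3, 149.2 and 170.2 CPM. These 3 genes were lower in every auxin library, as were 19.9% of all tested genes of this strain. The trap-2 values were 29.3 and 49.5 CPM in ethanol and 14.8, 15.9 and 42.6 CPM in auxin, and the third of these, from 2 counts in the shallow library, overlaps ethanol. The log2 changes were -0.80 ± 0.243 for trap-1, -1.26 ± 0.425 for trap-2, -0.73 ± 0.240 for trap-3 and -0.71 ± 0.230 for trap-4, and their adjusted p lay between 0.0713 and 0.110 (edgeR). Without the shallow library the trap-2 change was -1.31 ± 0.368, with an adjusted p of 0.137.

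Among the oligosaccharyltransferase genes, the ostb-1 groups were separate in RPOA-2 and GRWD-1, those of ribo-1 in GRWD-1 and TSR-2, and those of ostd-1 in TSR-2. In RPOA-2, ostb-1 was at 244.7, 177.3, 232.6 and 180.2 CPM in ethanol and at 146.1, 139.7, 150.0 and 144.0 CPM in auxin. In GRWD-1 it was at 233.1, 222.2 and 255.6 CPM in ethanol and at 136.5, 130.8 and 136.8 CPM in auxin. The auxin libraries of both strains lay close together and below every ethanol library. Log2 changes of ostb-1 were -0.53 ± 0.118 and -0.81 ± 0.139. In TSR-2, ostb-1 overlapped, at 161.2 and 184.8 CPM in ethanol and 179.8, 154.3 and 85.1 CPM in auxin, with a log2 change of -0.12 ± 0.240.

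The most abundant of the 9 by counts was ribo-1. In GRWD-1 it was at 672.3, 786.8 and 552.6 CPM in ethanol and at 373.6, 431.1 and 392.5 CPM in auxin, without overlap and with a log2 change of -0.75 ± 0.166. In TSR-2 it was at 554.9 and 565.0 CPM in ethanol and at 395.5, 404.7 and 404.2 CPM in auxin, also without overlap, with a log2 change of -0.48 ± 0.231 and an adjusted p of 0.294. In RPOA-2 it was at 729.0, 487.9, 572.3 and 761.2 CPM in ethanol and at 609.8, 438.1, 533.2 and 491.9 CPM in auxin. There the groups overlapped and the log2 change was -0.30 ± 0.155. For ostd-1 the RPOA-2 range was 46.8 to 65.2 CPM in ethanol and 41.4 to 61.1 CPM in auxin, and the GRWD-1 range was 48.7 to 83.4 against 45.5 to 69.4 CPM. In TSR-2 it was at 31 and 30.96 against 20.6 and 23.2 CPM, with 0 counts in the shallow library, so that its groups were separate on few counts and had a log2 change of -0.55 ± 0.412.

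The signal peptidase genes overlapped between treatments in all 3 strains. In RPOA-2, spcs-1 ran from 27.3 to 53.3 CPM in ethanol and from 27.4 to 46.3 CPM in auxin, and spcs-2 from 75.8 to 91.8 against 70.3 to 96.9 CPM. In GRWD-1, spcs-1 ran from 30.0 to 41.0 against 23.5 to 35.7 CPM, and spcs-2 from 65.4 to 115.8 against 70.8 to 96.7 CPM. Log2 changes lay between -0.29 and 0.10 over both genes and the 3 strains. Their SE ran from 0.128 for spcs-2 in RPOA-2 to 0.395 for spcs-1 in TSR-2, so small changes of these genes were not detectable at this depth and number of libraries.

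**Figure D3:**
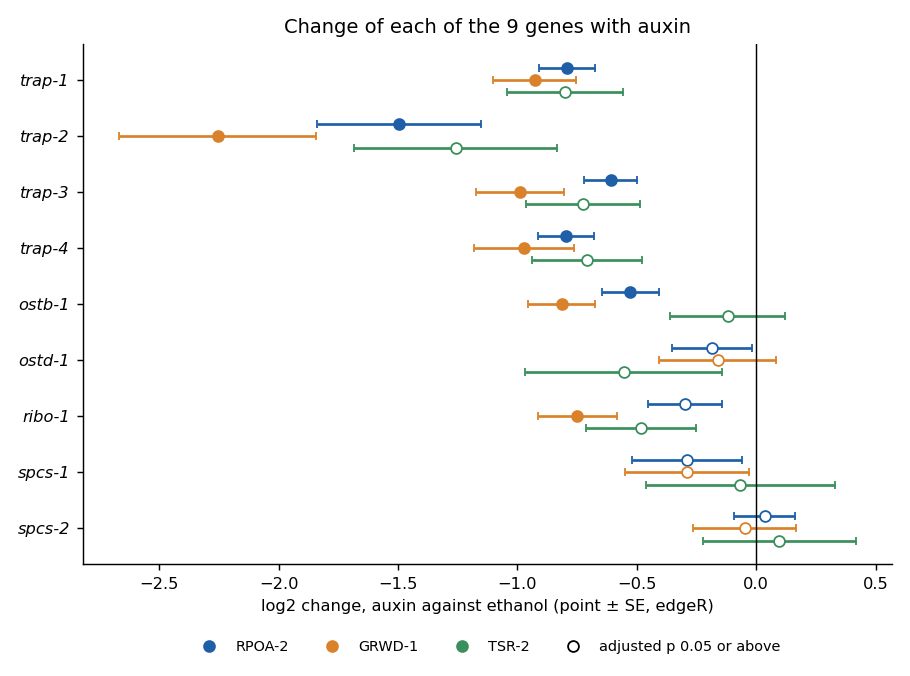
Log2 change of each of the 9 genes, auxin against ethanol, in the 3 strains, as points with SE bars from edgeR, filled where the adjusted p was under 0.05. The TRAP genes lie at -0.61 and below in every strain, and spcs-2 lies between -0.05 and 0.10.

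In the fit over all genes, 5 of the 9 were lower at an adjusted p under 0.05 in RPOA-2, namely the 4 TRAP genes and ostb-1, where 1.22% of all tested genes were. In GRWD-1 there were 6, these and ribo-1, where 1.48% of all tested genes were. In TSR-2 there were 0 by edgeR and 0 by DESeq2, with 5 at an unadjusted p under 0.05, where 2.02% of all tested genes were lower at the adjusted threshold. None of the 9 was called higher, where 2.56, 1.21 and 0.532% of all tested genes were. Groups without overlap and with all auxin libraries lower were seen for 5 of the 9 in RPOA-2, 6 in GRWD-1 and 5 in TSR-2, against 4.53, 11.3 and 19.9% of all tested genes. None had all auxin libraries higher without overlap, against 8.4, 13.3 and 12.7% of all tested genes. The contrast that chose the genes is the one counted here, so nothing is read from these counts. The median log2 change of the 9 was -0.53, -0.81 and -0.55 in RPOA-2, GRWD-1 and TSR-2, and that of all tested genes was -0.01, 0.00 and -0.03. Over all genes of GRWD-1, 84 were called higher and 103 lower, against 156 higher of 271 called with total-count scaling and 499 and 476 with same-numbered libraries as pairs.

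The calls changed when single libraries were left out. Without RPOA-2 ethanol replicate 3 the fit called 0 of the 9, where 7 of 8815 tested genes (0.0794%) were called. Without GRWD-1 ethanol replicate 3 it also called 0, where 26 of 8217 tested genes (0.316%) were called. With replicates 1 to 3 of RPOA-2 alone, leaving out the replicate whose libraries were numbered apart from the rest, 2 of the 9 were called. In that fit 1.58% of all tested genes were called. With same-numbered libraries as pairs, trap-2 in RPOA-2 had a log2 change of -1.61 ± 0.371 and an adjusted p of 0.05002, just over the threshold. In the 7 same-numbered pairs of RPOA-2 and GRWD-1, each TRAP gene, ostb-1 and ribo-1 were lower in auxin in 7 of 7, ostd-1 in 6, spcs-1 in 5 and spcs-2 in 2. The share of all tested genes that were lower in 7 of 7 pairs was not counted. The pairs hold the values that chose the genes, so nothing is read from these counts. The trap-2 pairs ranged from -0.74 to -3.25 in RPOA-2 and from -1.88 to -3.26 in GRWD-1 on the log2 scale.

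No difference between strains in the response of any of the 9 genes passed the interaction test. The trap-2 change was 0.75 ± 0.568 higher on the log2 scale in RPOA-2 than in GRWD-1 (adjusted p = 1.00, edgeR), 0.23 ± 0.632 lower in RPOA-2 than in TSR-2 (difference -0.23, adjusted p = 0.971) and -1.02 ± 0.601 in GRWD-1 relative to TSR-2 (adjusted p = 0.979). For ostb-1 the GRWD-1 change was -0.68 ± 0.293 relative to TSR-2, the sole case with an unadjusted p under 0.05 (0.0331), and its adjusted p was 0.979. Across all genes the interaction called 1 of 9495 between RPOA-2 and GRWD-1 (0.0105%), 3 of 11079 between RPOA-2 and TSR-2 (0.0271%) and 0 of 8757 between GRWD-1 and TSR-2, where 384 genes had an unadjusted p under 0.05 and DESeq2 called 12. With errors of this size, a p that misses the threshold does not show that the strains respond alike.

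The 9 genes did not keep their proportions within a library. As a share of the mean of trap-1, trap-3 and trap-4, trap-2 stood at 16.5, 5.13, 15.2 and 14.4% in RPOA-2 auxin replicates 1 to 4, all below the ethanol range of 17.2 to 29.2%. In GRWD-1 it stood at 24.06, 12.01 and 22.7% in ethanol and at 11.3, 2.43 and 11.7% in auxin. Neither strain overlapped, although GRWD-1 ethanol replicate 2 lay just above the auxin libraries. In TSR-2 the shares were 11.5 and 19.2% in ethanol against 11.6, 9.27 and 24% in auxin, and overlapped. The 24% rests on 2 counts of trap-2 in the shallow library.

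Set against the signal peptidase genes, the TRAP genes were lower in auxin libraries of each strain. The summed CPM of the 4 TRAP genes was 6.40 to 8.22 times that of spcs-1 and spcs-2 in RPOA-2 ethanol and 3.47 to 6.08 times in auxin. In GRWD-1 the ratio was 4.85 to 10.3 in ethanol and 3.26 to 4.70 in auxin, and in TSR-2 it was 7 and 10.4 against 3.38 to 6.58. The 3.38 came from the shallow TSR-2 auxin replicate 3, with 1 count of spcs-1 and 7 of spcs-2. A ratio within a library does not depend on its scaling, and it shows unequal change, not which of the 2 sets moved. Both ratios use the values that chose the genes and carry no test.

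**Figure D4:**
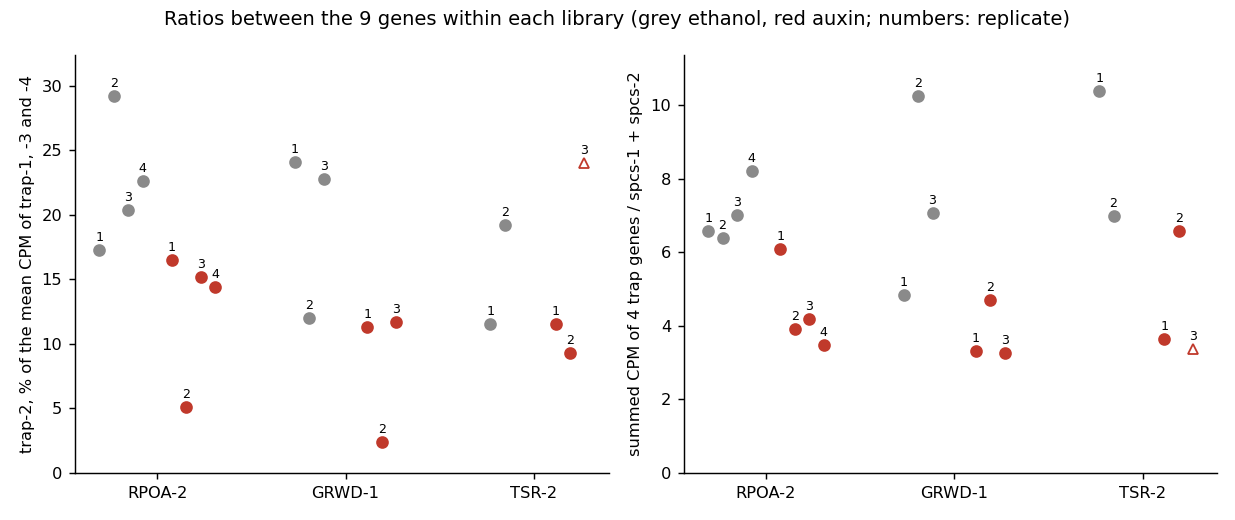
Ratios within each library, labelled by replicate: on the left trap-2 as a percent of the mean CPM of trap-1, trap-3 and trap-4, on the right the summed CPM of the 4 TRAP genes over that of spcs-1 and spcs-2. Auxin libraries (red) lie below the ethanol libraries (grey) of the same strain on the right in all 3 strains, and on the left in RPOA-2 and GRWD-1 but not in TSR-2. The open triangle is the shallow TSR-2 auxin replicate 3, whose ratios rest on few counts.

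Other subunits of the same complexes were compared with the 5 oligosaccharyltransferase and signal peptidase genes among the 9, whose median log2 changes were -0.29, -0.29 and -0.12 in RPOA-2, GRWD-1 and TSR-2. Of 7 further oligosaccharyltransferase and signal peptidase genes and relatives, edgeR called 1 lower in RPOA-2 and 0 in GRWD-1 and TSR-2, with medians of -0.33, -0.15 and -0.39. At an unadjusted p under 0.05 stood 3, 2 and 2 of them, and DESeq2 called 3, 1 and 0. The called gene was imp-2, of the signal peptide peptidase family, which cuts signal peptides within the membrane and is not a subunit of either complex. It went from 180 ± 18.5 to 118 ± 19.9 CPM (SD, n = 4 each), with a log2 change of -0.62 and an adjusted p of 0.0348 (edgeR), and was called in 1 of 8 fits with a library left out. The catalytic subunit stt-3 had log2 changes of -0.33, -0.44 and -0.54 in RPOA-2, GRWD-1 and TSR-2, and ZK686.3 had -0.20, -0.30 and -0.74, none of which passed by edgeR. By DESeq2 imp-2 passed in RPOA-2 and GRWD-1, and stt-3 and the signal peptidase subunit gene spcs-3 passed in RPOA-2. The log2 changes of spcs-3 were -0.44, -0.08 and -0.05 in RPOA-2, GRWD-1 and TSR-2. Its adjusted p in RPOA-2 was 0.0441 by DESeq2, and it did not pass by edgeR in any strain. Across all genes 3.78, 2.69 and 2.55% were called in either direction in the 3 strains.

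The channel gene itself was lower in all 3 strains, a call that varied with the libraries used. Of 13 translocon and targeting genes, sec-61.A, which encodes the alpha subunit that forms the channel, was called lower in each. It went from 703 ± 75.0 to 454.6 ± 81.1 CPM in RPOA-2 (adjusted p = 0.0318, edgeR), from 767 ± 166 to 347 ± 37.3 CPM in GRWD-1 (adjusted p = 0.00847, edgeR) and from 809 ± 38.4 to 399 ± 65.0 CPM in TSR-2 (adjusted p = 0.0146, edgeR). Its log2 changes were -0.63, -1.14 and -1.04. With each library left out in turn the call held in 2 of 8 fits in RPOA-2, 4 of 6 in GRWD-1 and 3 of 5 in TSR-2, and without the shallow TSR-2 library the change was -1.03 with an adjusted p of 0.109 (edgeR). The other 2 channel subunits were not called by edgeR in any strain: sec-61.G had -0.84, -0.40 and -0.74, and sec-61.B had -0.54, 0.36 and -0.32. The signal recognition particle gene srpa-72 was called higher in RPOA-2 at 0.48 with an adjusted p of 0.0198 (edgeR), and stood at 0.54 and 0.56 in GRWD-1 and TSR-2, where it did not pass by edgeR. With a library left out its call held in 1 of 8 fits. DESeq2 called 4, 2 and 1 of the 13, among them sec-61.A in each strain, sec-61.G in RPOA-2 (adjusted p = 0.0276, DESeq2) and srpa-72 higher in RPOA-2 and GRWD-1. F37F2.2 had -0.25, -0.73 and -1.05 and was called by neither tool. The median of the 13 was -0.14, 0.00 and 0.01, beside -0.01, 0.00 and -0.03 for all genes.

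Upstream of the oligosaccharyltransferase, 0 of the 16, 16 and 15 tested genes of lipid-linked oligosaccharide assembly were called in RPOA-2, GRWD-1 and TSR-2, with 17 genes listed. Their medians were -0.05, 0.21 and 0.05. The mannosyltransferase genes algn-9 and algn-12 went opposite ways by value, at -0.34, -0.70 and -1.07 for algn-9 and 0.41, 0.62 and 0.31 for algn-12, and algn-2 had -0.05, 0.69 and 0.17. The ER membrane complex, a second route for membrane proteins, had 0 of 4, 4 and 5 tested genes called. There emc-1 had -0.08, -0.47 and -0.46, emc-2 had 0.03, 0.59 and 0.58, and emc-5 had 0.17, -0.57 and 0.26. By edgeR no gene of these lists passed in any strain. At an unadjusted p under 0.05 stood 2, 5 and 1 of the assembly genes and 0, 1 and 0 of the complex, and DESeq2 called 1, 2 and 0 and 0, 1 and 0. These DESeq2 calls were algn-12 higher in RPOA-2 and GRWD-1, algn-2 higher in GRWD-1 and emc-1 lower in GRWD-1.

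The ER chaperones and folding enzymes, which take over once a protein is inside, had 7, 6 and 6 of 14 genes called lower and 0 called higher, with medians of -0.54, -0.76 and -0.83. The BiP-like chaperone gene hsp-3 and the disulfide isomerase genes pdi-2 and pdi-6 were lower in all 3 strains, at -1.39, -1.82 and -2.04 for hsp-3, -1.46, -1.69 and -2.51 for pdi-2 and -1.27, -1.45 and -2.30 for pdi-6. These 3 are on chromosome X, as trap-2 is. With a library left out each was called in 3 of 8 fits in RPOA-2, and hsp-3, pdi-2 and pdi-6 in 6, 5 and 2 of 6 fits in GRWD-1. DESeq2 called 8, 9 and 3 of the 14. Without the shallow TSR-2 library, 2 of the 14, hsp-3 and pdi-2, were called in that strain, and pdi-6 had -2.23 with an adjusted p of 0.0560 (edgeR). The decrease of hsp-3, pdi-2 and pdi-6 was known when the lists were made and is not independent support. Of 10 unfolded protein response regulators, the PERK-like kinase gene pek-1 was called lower in RPOA-2 (-0.80, adjusted p = 0.0341, edgeR) and in TSR-2 (-1.47, adjusted p = 0.0345, edgeR), and GRWD-1 had -0.22. With a library left out, pek-1 was called in 1 of 8 fits in RPOA-2 and 0 of 5 in TSR-2. The transcription factor genes xbp-1, at -0.03, 0.53 and 0.78, and atf-6, at -0.39, -0.995 and -1.26, did not pass by edgeR. DESeq2 called 2, 1 and 0 of the tested regulators, and its call in GRWD-1 was xbp-1 (adjusted p = 0.0110, DESeq2). Of 9 COPII coat genes, whose products carry cargo out of the ER, tfg-1 was called lower in RPOA-2 at -0.56 (adjusted p = 0.0276, edgeR) and in 2 of 8 fits with a library left out, and DESeq2 called it in RPOA-2 and GRWD-1. Neither tool called sar-1 or npp-20 in any strain.

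**Figure D5:**
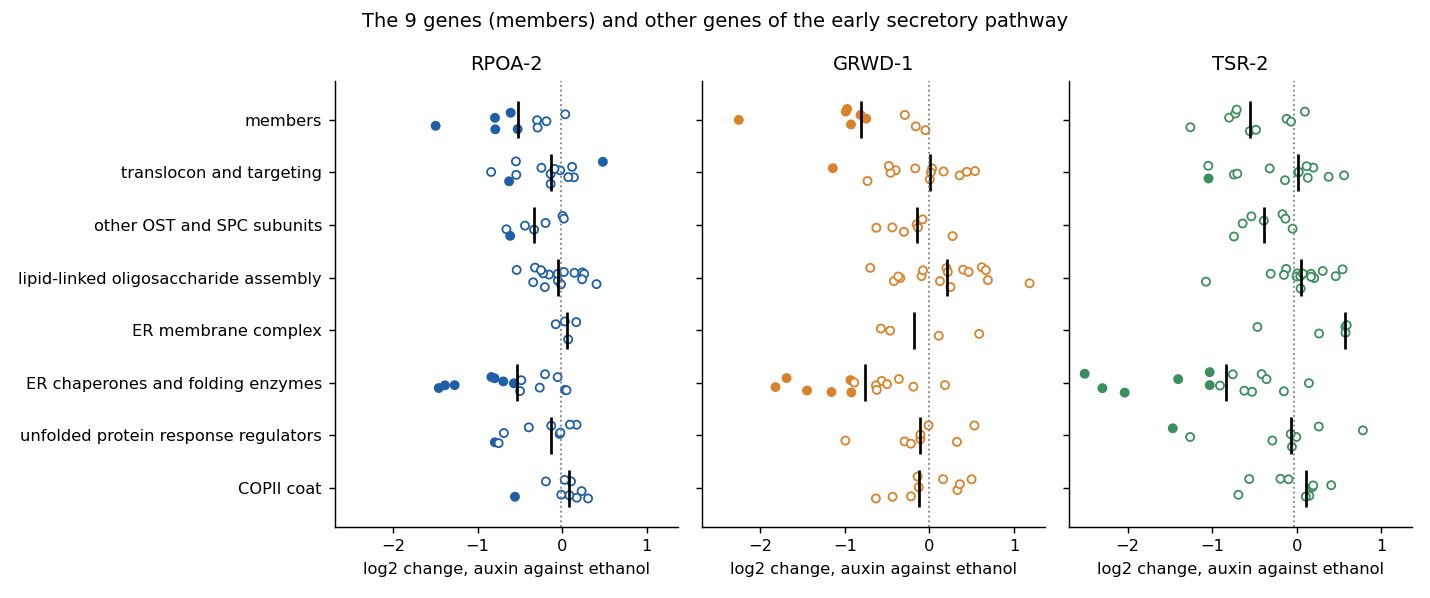
Log2 change, auxin against ethanol, of the 9 genes and of 7 other lists of the early secretory pathway in each strain, 1 point per tested gene, filled where the adjusted p was under 0.05, with black bars for list medians and a dotted line for the median of all tested genes. The 9 genes and the ER chaperones have medians from -0.53 to -0.83, and the other lists have medians between -0.39 and 0.58.

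Genes whose pattern over the 14 RPOA-2 and GRWD-1 libraries was most like the mean of the 9 were sought among 5353 genes of at least 10 CPM. Each gene was taken relative to its ethanol mean within its strain, so the likeness holds the treatment difference and all genes are read in the same libraries at the same depths. The closest was perm-1, a gene of eggshell permeability, with a Pearson r of 0.944, followed by the filamin gene fln-1 at 0.943. Next were the disulfide isomerase gene pdi-3 at 0.938, the BiP-like hsp-4 at 0.937 and the golgin gene sql-1 at 0.927. The median r over all these genes was -0.06, and 21 genes exceeded 0.9. Among the 9, r with their common mean, which holds them, was 0.941 for trap-3, 0.922 for trap-4, 0.921 for ostb-1, 0.919 for trap-1, 0.856 for ribo-1 and 0.800 for trap-2. It was 0.559 for spcs-1, 0.463 for ostd-1 and 0.06 for spcs-2.

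The label of the tissue was checked against markers. Summed CPM of 12 oocyte markers were 9486 to 13072 in the RPOA-2 and GRWD-1 libraries, and 11 markers of mitotic and early meiotic germ cells gave 2589 to 4101. In TSR-2 the oocyte sum was 10682 and 11670 in ethanol and 8169 to 10423 in auxin, and the early germ cell sum was 3176 to 3511 against 3787 to 4886. No oocyte marker was called by edgeR or DESeq2 in any strain, with 0, 1 and 1 at an unadjusted p under 0.05 in RPOA-2, GRWD-1 and TSR-2, and syp-1 of the early germ cell list was called higher in RPOA-2 and TSR-2, and in TSR-2 not without the shallow library. Sperm markers summed to at most 27.6 CPM. The 7 body wall muscle markers summed to 299 to 2140 CPM in ethanol and 385 to 547 CPM in auxin in RPOA-2, to 131 to 228 against 148.5 to 254 CPM in GRWD-1, and to 255 and 299.9 against 63.8 to 199.4 CPM in TSR-2, where the groups did not overlap. Log2 changes were negative for 7 of 7 in RPOA-2, 1 of 7 in GRWD-1 and 5 of 7 in TSR-2, with medians of -0.74, 0.46 and -0.59. The 5 hypodermal markers summed to 146 to 1046 against 165.5 to 456.9 CPM in RPOA-2, 115.1 to 119 against 134 to 184 CPM in GRWD-1, and 102 and 165.7 against 181 to 276.5 CPM in TSR-2. The hypodermal sums did not overlap in GRWD-1 and TSR-2, where auxin was higher. Log2 changes of the tested hypodermal markers were negative for 2 of 4 in RPOA-2, 0 of 3 in GRWD-1 and 0 of 2 in TSR-2. Their medians were -0.58, 0.74 and 0.73, and none was called by edgeR or DESeq2. The part of the RNA of muscle and hypodermis in the values of the 9 genes was not tested.

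Gut RNA differed widely between libraries. The 14 intestinal markers summed to 1797 to 43150 CPM in RPOA-2 ethanol and 705 to 24048 CPM in auxin, to 846 to 4978 against 470 to 1931 CPM in GRWD-1, and to 1355 and 2087 against 213 to 927 CPM in TSR-2. By edgeR and by DESeq2 0 of these markers were called in RPOA-2 and GRWD-1, with 0 and 2 at an unadjusted p under 0.05. Log2 changes of the tested markers were negative for 10 of 10 in RPOA-2, 7 of 8 in GRWD-1 and 7 of 7 in TSR-2. The medians were -1.37, -1.24 and -1.33. In TSR-2 edgeR called 4 of 7 tested lower, the vitellogenin genes vit-1, vit-3, vit-4 and vit-5, and also unc-89 of the muscle list, where DESeq2 called 1 intestinal marker. Without the shallow library 0 of these 5 were called, with adjusted p from 0.0587 to 0.0817 (edgeR). Vitellogenin RNA made up most of each intestinal sum. The 8 intestinal markers that are not vitellogenin genes summed to 55.34 to 585 CPM in RPOA-2 ethanol and 14.88 to 319.2 CPM in auxin. In GRWD-1 they summed to 9.724 to 69.5 against 11.93 to 30.98 CPM. In TSR-2 it was 17.63 and 20.57 against 0 to 12.95 CPM. Secretory tissues such as the intestine express these 9 genes too. In RPOA-2 ethanol replicates 1 to 4 the mean of trap-1, trap-3 and trap-4 was 301, 253, 259 and 276 CPM beside intestinal sums of 1797, 43150, 6037 and 23974 CPM. In RPOA-2 auxin replicates 1 to 4 it was 188, 152, 163 and 158 CPM beside 3432, 1481, 705 and 24048 CPM. In GRWD-1 ethanol it was 234.7, 320.4 and 240.7 CPM beside 4978, 1370 and 846 CPM, and in auxin 114.6, 165.5 and 127 CPM beside 1931, 470 and 908 CPM. For trap-2, the RPOA-2 ethanol values ran in the order of the intestinal sums, at 74.1, 62.5, 52.8 and 51.9 CPM in replicates 2, 4, 3 and 1. In RPOA-2 auxin and in the GRWD-1 and TSR-2 groups trap-2 did not follow the intestinal order. The part of intestinal RNA in the TRAP values was not tested.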

How the data were processed

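RNA was measured by stranded RNA-seq of dissected gonads in 19 libraries. The 9 genes and all lists were chosen with earlier results of these data known. The authors deposited whole-number read counts per gene, not normalized, for 19985 protein-coding genes in 14 libraries of RPOA-2 and GRWD-1. They also deposited expected counts, in which reads that map to several places are divided, for 46930 features in 17 libraries, which hold TSR-2 but not RPOA-2 replicate 4. The submitters' processing notes name Trim Galore 0.6.10, HISAT2 2.2.1, Picard, featureCounts 2.0.6 and WBcel235. Their settings, strand setting and annotation are not given in the sources used here. Symbols, lengths and coordinates (from 1) came from the Ensembl 115 annotation of WBcel235, without sequence.

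The design named the protein-coding table where it held a strain. For TSR-2, and for interactions with it, protein-coding genes of the fractional table were rounded to whole counts, so these interactions hold RPOA-2 replicates 1 to 3. Genes were tested in R 4.3.3 with edgeR 4.0.16 (limma 3.58.1 loaded with it): filterByExpr, TMM, quasi-likelihood F test within a strain, and p adjusted by Benjamini-Hochberg over every gene in the fit, at 0.05. Interactions were contrasts with 1 coefficient per group. All 9 genes passed the filter in each strain. SE was derived from the log2 change and its F statistic. The fits were tested on simulated data. Alternatives were DESeq2 1.42.0, RLE and total-count scaling, no filter, a replicate block, the fractional table, RPOA-2 replicates 1 to 3, and each replicate left out. Total-count scaling of the ethanol order was added after seeing the data.

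Same-numbered ethanol and auxin libraries deviated together from their group means. Correlations across genes were 0.175 to 0.314 in RPOA-2 and 0.233 to 0.459 in GRWD-1. Libraries with different numbers had -0.441 to 0.300 in RPOA-2 and -0.450 to 0.144 in GRWD-1, so the ranges overlapped in RPOA-2. In these strains the numbers were taken as pairs for the replicate block and the pair counts. The main fits were not paired. That libraries came from separate cultures is not stated, so p-values measure the spread between these libraries.

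Named were all 9 genes and the 3 tagged genes. From each of 7 lists the 3 genes of at least 10 CPM in ethanol with the largest mean absolute change were named. So were the 5 genes most like the 9 by Pearson r of log2 CPM (prior count 3). Chosen after their values were seen were srpa-72, sec-61.B, spcs-3, syp-1, unc-89 and the vitellogenin genes. Cell type markers covered sheath and somatic gonad, intestine, body wall muscle, hypodermis, sperm, early germ cells and oocytes.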

Additional observations from a re-analysis of the deposited data

How the results depend on the processing

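All 148 alternative log2 changes of the 4 TRAP genes in the 3 strains were negative, from -2.55 to -0.47, but their side of the threshold varied. The number of the 9 genes called was 5 in RPOA-2, against 0 with the fractional table (which lacks replicate 4), 2 with replicates 1 to 3 only and 0 to 4 with a replicate left out. In GRWD-1 it was 6, against 3 with the fractional table and 0 to 5 with a replicate left out. There were 0 without ethanol replicate 3 in either strain, and in GRWD-1 there was 1 without ethanol replicate 2, auxin replicate 1 or auxin replicate 3. In TSR-2 it was 0, against 1 with RLE size factors, trap-1 at -0.87 (adjusted p = 0.0414, edgeR).

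Of all tested genes 3.78% were called in RPOA-2, against 7.68% with DESeq2, 0.337% with the fractional table, 1.58% with replicates 1 to 3 and 0.0794 to 2.8% with a replicate left out. In GRWD-1 it was 2.69%, against 6.61% with DESeq2, 1.13% with the fractional table and 0.316 to 1.68% with a replicate left out. In TSR-2 it was 2.55%, against 0.422% with DESeq2, 1.67% (253 genes against 163) without a filter and 0.0885% (6 genes, without auxin replicate 3) to 6.41% (without ethanol replicate 1) with a replicate left out. DESeq2 called 338 genes higher and 267 lower in RPOA-2, 203 and 256 in GRWD-1 and 9 and 18 in TSR-2. The replicate block gave 3.4% of genes in RPOA-2 and 14% (975 genes) in GRWD-1, with 4 and 6 of the 9 called, and changed no other call of the 9 than trap-2 in RPOA-2. In TSR-2 the numbers share only a number (correlations of -0.180 and -0.07), and the block gave 0.485% (31 genes) and 0 of the 9.

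Interaction calls between RPOA-2 and GRWD-1 were 1, against 24 with DESeq2, 2 without a filter, 2 with the replicate block, 3 with RLE, 5 with total counts and 0 to 2 with a replicate left out. Between RPOA-2 and TSR-2 they were 3, against 5 with DESeq2, 91 without a filter, 0 with the replicate block, RLE or total counts, and 0 to 7 with a replicate left out. Between GRWD-1 and TSR-2 they were 0, against 12 with DESeq2, 19 without a filter and 0 to 1 with a replicate left out.

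Changes of sign were limited to values near 0. In GRWD-1, ostd-1 ran from -0.34 to 0.15 with a replicate left out, and spcs-2 from -0.19 to 0.21 and was 0.032 without a filter. In RPOA-2, spcs-2 was -0.035 with the fractional table and -0.066 with replicates 1 to 3. With a replicate left out it ran from -0.058 to 0.085. In TSR-2, ostb-1 ran from -0.25 to 0.020, spcs-1 from -0.36 to 0.36 and spcs-2 from -0.15 to 0.42 with a replicate left out, and spcs-2 was -0.016 with the replicate block. The trap-2 difference between RPOA-2 and TSR-2 ran from -0.68 to 0.14 with a replicate left out. Total counts changed 2 places in the ethanol order. The median r of the 5 most similar genes was 0.938, against 0.930 in RPOA-2 alone and 0.957 in GRWD-1 alone. Other causes of these shifts were not tested. TSR-2 rests on 2 ethanol libraries, and low counts in its auxin replicate 3 limit every gene there.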
